A study of Mus musculus with 9 samples.

Results

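Transcripts of 10 genes associated with sensory nerve fibres were followed in RNA from the bones of aged and young mice. The genes were taken by symbol from a deposited table of 56980 genes, and all 10 had a row in it: Calca, Trpv1, P2rx3, Prph, Nefl, Nefh, Tubb3, Uchl1, Gap43 and Rtn1. The symbols and no measured threshold defined the set, although earlier results of these data were known when it was proposed. Bulk RNA was sequenced from 5 aged mice (20 months old) and 4 young mice (3 months old), described as female wild-type C57BL/6 animals that received no treatment other than ageing. The tissue was labelled bone marrow, while the extraction started from mechanically homogenised trabecular bone, so that marrow, bone and any nerve fibres within them could contribute. The series asked which transcripts tied to sensory innervation change in ageing bone. Labels call each library a biological replicate, and the p-values below measure the spread between these libraries.

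Sensory nerves reach the marrow and the bone surface as thin axons whose cell bodies lie in the dorsal root ganglia. Most RNA of such a neuron stays in the cell body, outside the bone, and transcripts of a fibre can enter a bone sample only from the axon itself or from local cells that use the same gene. Peptidergic pain fibres release calcitonin gene-related peptide, encoded by Calca, and carry the heat and capsaicin channel Trpv1. The ATP-gated channel P2rx3 marks other pain fibres. Prph, Nefl and Nefh encode intermediate filament proteins of axons, Tubb3 a neuronal beta-tubulin, Uchl1 the ubiquitin hydrolase detected by antibodies against PGP9.5, Gap43 a protein of growing axon tips and Rtn1 a reticulon of the endoplasmic reticulum.

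Library totals ranged between 19804883 and 23548594 estimated counts. Levels are given as estimated counts rounded to whole numbers and as CPM, the count relative to the library total on a fixed common scale, with TMM factors that adjust each total for differences in composition. Aged 3, aged 4 and young 4 stood apart from the other 6 libraries, with 5.65 to 6.57% of their counts in ribosomal protein genes, against 2.87 to 3.09%. These 3 libraries also detected fewer genes: 17359 in aged 3, 21928 in aged 4 and 21528 in young 4, compared with 22978 to 23782 in the others. Sex-chromosome transcripts went against the stated sex in aged 5 and the 4 young libraries. Aged 1 to 4 had 7909 to 21724 counts of Xist and 0 of the Y-linked gene Ddx3y, whereas aged 5 had 9 of Xist and 1640 of Ddx3y, and the 4 young libraries had 1 to 8 of Xist and 888 to 1721 of Ddx3y. Apart from aged 5, age and sex-chromosome transcripts therefore cannot be told apart. Marrow and bone markers were present, with summed neutrophil markers at 16200 to 70800 CPM in aged and 22400 to 51400 CPM in young libraries, and osteoblast markers at 416 to 2920 CPM in aged and 2730 to 7150 CPM in young libraries. Skeletal muscle genes were also abundant, at 3430 to 9340 CPM in aged and 3500 to 8520 CPM in young libraries.

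The RefSeq promoter table used here was matched by symbol to 6 of the 10 members: Calca, Trpv1, Prph, Tubb3, Uchl1 and Rtn1. The 250 bases before the start are shown for 4 of them, so that members with almost no counts in bone (Calca and Prph) can be read beside members counted in every library (Tubb3 and Uchl1). On build GRCm38.p6 the windows are chr7:114636358-114636607 on the minus strand for Calca, chr15:99054924-99055173 on the plus strand for Prph, chr8:123411303-123411552 on the plus strand for Tubb3 and chr5:66675871-66676120 on the plus strand for Uchl1. Capitals mark the motifs named after the sequences, and a motif on the other strand appears as its reverse complement.
Calca: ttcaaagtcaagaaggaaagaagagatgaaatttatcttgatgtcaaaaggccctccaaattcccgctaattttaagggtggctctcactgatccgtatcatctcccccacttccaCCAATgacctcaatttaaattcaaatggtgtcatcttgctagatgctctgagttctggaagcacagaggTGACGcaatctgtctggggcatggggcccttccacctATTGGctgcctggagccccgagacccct
Prph: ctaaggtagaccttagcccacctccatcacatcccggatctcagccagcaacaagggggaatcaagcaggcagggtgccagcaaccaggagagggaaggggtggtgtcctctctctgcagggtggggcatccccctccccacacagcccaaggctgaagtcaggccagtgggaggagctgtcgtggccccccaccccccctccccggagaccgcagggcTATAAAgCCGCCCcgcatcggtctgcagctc
Tubb3: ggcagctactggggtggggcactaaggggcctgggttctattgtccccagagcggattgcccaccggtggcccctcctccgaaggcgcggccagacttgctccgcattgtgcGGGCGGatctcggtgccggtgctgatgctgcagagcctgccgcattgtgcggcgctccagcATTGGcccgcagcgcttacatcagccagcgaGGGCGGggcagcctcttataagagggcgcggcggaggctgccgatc
Uchl1: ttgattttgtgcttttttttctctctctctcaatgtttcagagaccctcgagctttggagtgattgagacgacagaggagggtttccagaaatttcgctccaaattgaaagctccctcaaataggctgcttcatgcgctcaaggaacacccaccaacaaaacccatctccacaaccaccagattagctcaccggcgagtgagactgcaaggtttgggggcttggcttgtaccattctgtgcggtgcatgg
Prph was the member with TATAAA, which 12.4% of 32851 mouse promoter windows of the same length hold. Calca was the member with TGACG, the core of a cyclic AMP response element, found in 17.8% of the windows. GGGCGG, the letters of a GC box, stood in 4 of the 8 windows of members (Prph, Rtn1 and Tubb3) and in 32.7% of all windows. CCAAT stood in 4 of 8 (Calca, Rtn1, Trpv1 and Tubb3) and in 33.8%. Of the 4 windows, that of Uchl1 held no match. GGACAGC, part of the RE1 element that binds the neuronal repressor REST, stood in none of these 4 windows, in 1 Rtn1 window not shown and in 5.28% of all windows. These matches are letters in a window and were not tested for binding.

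In these libraries 5 of the 10 members were near zero, defined as fewer than 10 estimated counts in every library. Calca, Trpv1, Prph, Gap43 and Nefl together gave 55 of 191759535 estimated counts, 26 of them in aged and 29 in young libraries. In a single library a count of 0 allows up to 3 counts, or 0.113 to 0.184 CPM in aged and 0.114 to 0.204 CPM in young libraries, for counting error only. Calca had 2, 0, 7, 0 and 3 counts in aged 1 to 5, against 0, 0, 1 and 0 in young 1 to 4. Aged 3 held most of these counts, and aged 2, aged 4, young 1, young 2 and young 4 held none. The summed counts per library total gave an aged-over-young ratio of 9.83 with a 95% exact counting interval of 1.45 to 420.0, which leaves out the spread between libraries. Fitted by edgeR without a low-count filter, the Calca difference had an adjusted p of 0.722, and Calca did not pass the test. For this and all later values, fewer cells or fibres of a type and less RNA in each cannot be told apart in bulk RNA.

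The other members near zero gave no called difference either. Trpv1 had 3, 3, 0, 0 and 0 counts in aged libraries and 2, 2, 2 and 0 in young libraries. Its 0 values fell in aged 3, 4 and 5 and in young 4, and its ratio of summed counts was 0.819 (95% exact counting interval 0.219 to 3.06). Prph had 1, 3, 0, 3 and 0 counts in aged libraries, against 4, 9, 1 and 5 in young libraries. In counts young 1, 2 and 4 lay above every aged library for this filament protein of unmyelinated axons, while young 3 lay among them. In CPM young 1, at 0.152, was level with aged 4, at 0.156. The Prph ratio was 0.302 (95% exact counting interval 0.107 to 0.75), and its adjusted p without the low-count filter was 0.722 by edgeR. Gap43 had 0 counts in all 5 aged libraries and 2, 0, 0 and 1 in young libraries. Nefl, the light neurofilament subunit, had a single count in aged 2 and 0 in the other 4 aged and all 4 young libraries. No fold is given for Gap43 or Nefl, whose sums were at or under 3 counts in each group.

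**Figure D1:**
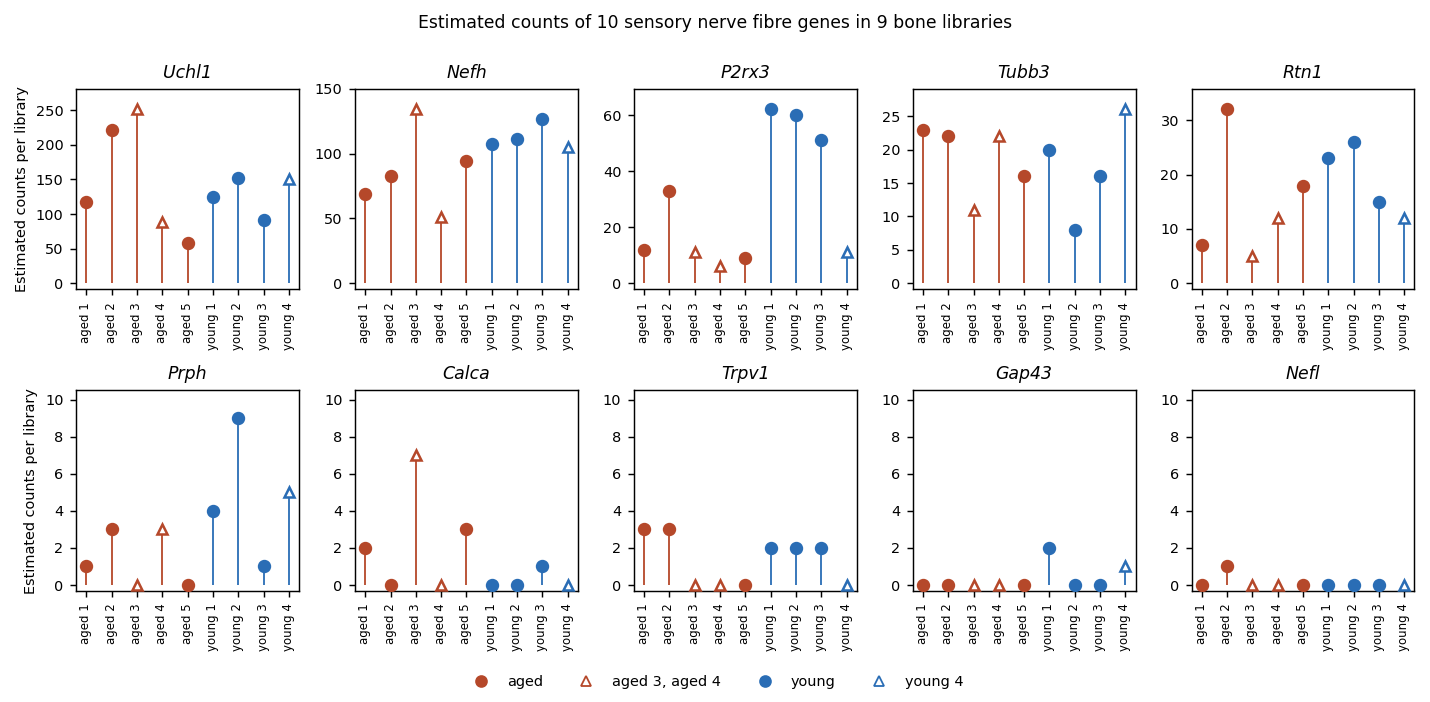
Estimated counts (vertical axes, reads assigned per gene) of the 10 genes in aged 1 to 5 (red) and young 1 to 4 (blue), each point 1 library. Open triangles are aged 3, aged 4 and young 4; the upper row holds the 5 genes above the low-count filter on axes of their own, and the lower row the 5 genes that stay under 10 counts.

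P2rx3 had the largest age difference among the 5 members that passed the low-count filter. Its estimated counts were 12, 33, 11, 6 and 9 in aged libraries, against 62, 60, 51 and 11 in young libraries. Young 1 to 3 stood above every aged library, and young 4, with 11, lay among the aged libraries, under aged 1 and aged 2 and level with aged 3. In CPM young 4 was at 0.747, under aged 2 alone, at 1.47. On the CPM scale P2rx3 averaged 0.662 ± 0.474 in aged and 2.0 ± 0.871 in young libraries (SD, n = 5 and 4). The log2 fold change, aged over young, was -1.59 (SE 0.56), with an adjusted p of 0.42 by edgeR's quasi-likelihood test, so the lower mean in aged libraries did not pass the threshold of 0.05. The authors' deposited table listed a log2 fold change of -1.60 for P2rx3 and an adjusted p of 0.165, also not significant there.

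The age difference of P2rx3 was also taken within each set of libraries. In the 6 other libraries P2rx3 averaged 0.775 ± 0.607 CPM in aged and 2.42 ± 0.306 CPM in young mice (SD, n = 3 each), and the groups did not overlap. Its log2 fold change there was -1.63 (SE 0.53; adjusted p = 0.129 by edgeR). Groups that do not overlap were common in those 6 libraries, at 30.7% of 16644 genes tested, and 16.3% did so with the aged group lower. Aged 3 and aged 4 had 0.674 and 0.312 CPM, against 0.747 CPM in young 4. The difference of mean log2 CPM was -0.59, with no test, and by this measure the 6 other libraries gave -1.75. When a term for the library set was added to the fit of all 9, the fold change was -1.38 (SE 0.50; adjusted p = 0.172 by edgeR). The difference of the age effect between the 2 sets was 1.03 on the log2 scale (SE 1.13) and did not pass the test, with an adjusted p of 0.965 by edgeR. Aged 5, whose sex-chromosome transcripts matched the young libraries, had 0.339 CPM, below each of the 4 young libraries.

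P2rx3 lies on chromosome 2, where its exons overlap those of Ssrp1, a histone chaperone gene on the opposite strand. Whether counting used the strand is not given in the sources used here, so the reads of these 2 genes cannot be told apart with certainty and the P2rx3 values are uncertain. P2rx3 counts were 0.24, 0.786, 0.184, 0.102 and 0.143% of the Ssrp1 counts in aged libraries, against 0.912, 1.04, 0.824 and 0.19% in young libraries. Ssrp1 itself averaged 262 ± 72.8 CPM in aged and 294 ± 66.3 CPM in young libraries (SD, n = 5 and 4). The Ssrp1 log2 fold change was -0.16 (SE 0.25; adjusted p = 1.0 by edgeR), and whether Ssrp1 reads contribute to the P2rx3 counts was not tested.

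P2rx2 encodes the subunit that joins P2X3 in mixed channels on sensory endings. It had 14, 4, 16, 2 and 23 counts in aged libraries, against 50, 32, 47 and 27 in young libraries. Every aged library lay below every young library in CPM, at means of 0.547 ± 0.396 CPM in aged and 1.79 ± 0.226 CPM in young libraries (SD, n = 5 and 4), as in 2.76% of the 16576 genes tested. The log2 fold change was -1.71 (SE 0.60), and the adjusted p was 0.412 by edgeR, so P2rx2 also missed the threshold. P2rx2 was taken from a list of other sensory neuron genes, as the one with the smallest p of the 7 tested. Of these 7, 4 were above 0 and 3 below, with a median of 0.04. Marker lists of other cells had median log2 fold changes on both sides of 0. The 5 lists with medians furthest from 0 are described first. All 10 osteoblast genes had log2 fold changes below 0, where 46.5% of all genes tested did, with a median of -1.43, and all 10 erythroid and all 7 B cell progenitor genes were below 0, with medians of -1.19 and -1.09. All 6 plasma cell genes and 10 of 14 monocyte and dendritic cell genes were above 0, with medians of 1.22 and 0.59. Erythroid sums were 7040 to 200000 CPM in aged and 67800 to 316000 CPM in young libraries, and B cell progenitor sums were 24.2 to 262 CPM in aged and 192 to 231 CPM in young libraries. Plasma cell sums were 444 to 1530 CPM in aged and 335 to 679 CPM in young libraries, and monocyte and dendritic cell sums were 1680 to 2580 CPM in aged and 1170 to 1470 CPM in young libraries. No gene of these 5 lists was at 0 in every library or called by edgeR with the age group alone. With the library set as a term, edgeR called 2 plasma cell genes and 2 monocyte and dendritic cell genes, higher in aged libraries. It also called 1 erythroid gene, lower in aged libraries. That fit called 1.92% of all genes tested, among them 1 osteocyte gene, lower in aged libraries. With the age group alone, 5 of 6 osteocyte and 4 of 4 tested chondrocyte genes were below 0, with medians of -0.57 and -0.55. Medians were 0.06 for megakaryocyte, 0.1 for skeletal muscle, 0.12 for neutrophil, 0.15 for endothelial and 0.18 for mast cell genes. The part of these cell types in the P2rx3 and P2rx2 values was not tested.

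**Figure D2:**
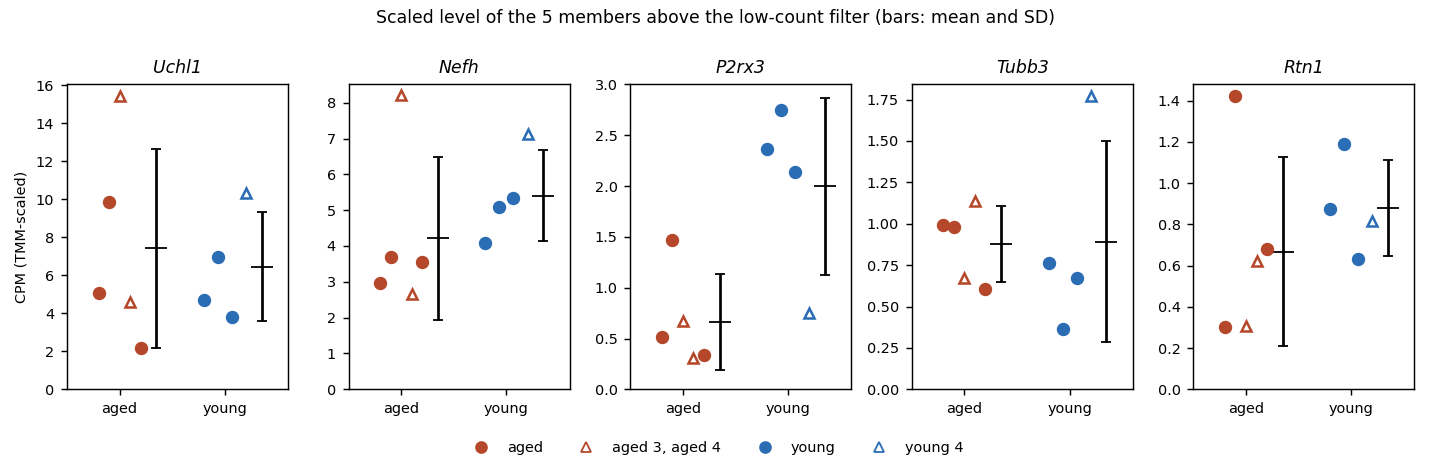
CPM with TMM factors (vertical axes) of the 5 genes above the low-count filter, in aged (red, left) and young (blue, right) libraries, 1 point per library, with the mean and SD beside each group. Open triangles are aged 3, aged 4 and young 4; only in P2rx3 do 3 young libraries stand above all 5 aged ones, with young 4 at 0.747 CPM.

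Among the structural members, Nefh was counted in every library and Tubb3 at low levels. Nefh, the heavy neurofilament subunit of large myelinated axons, had 69, 83, 134, 51 and 94 counts in aged libraries, against 107, 111, 127 and 105 in young libraries. In CPM these were 2.98, 3.69, 8.21, 2.65 and 3.54 in aged, and 4.07, 5.08, 5.33 and 7.13 in young libraries. Aged 3 held the highest value of the 9 libraries and the other 4 aged libraries the lowest values. The Nefh log2 fold change was -0.36 (SE 0.37; adjusted p = 0.985 by edgeR). Without aged 3 it was -0.74 (adjusted p = 0.274 by edgeR). The groups no longer overlapped once this highest library was left out, which follows from the order just given and adds nothing to it. The share of all genes doing so was not counted. In the 6 other libraries Nefh averaged 3.4 ± 0.377 CPM in aged and 4.83 ± 0.669 CPM in young mice (SD, n = 3 each). Its groups did not overlap there, as in 16.3% of the 16644 genes tested with the aged group lower. The Nefh log2 fold change in these 6 was -0.49 (SE 0.20; adjusted p = 0.2 by edgeR). Its partner subunits were all but missing: Nefl and Nefm gave 1 count each over the 9 libraries, in aged 2 and aged 4, so that Nefh was counted without the subunits it assembles with in axons.

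Tubb3 had 23, 22, 11, 22 and 16 counts in aged libraries, against 20, 8, 16 and 26 in young libraries. The groups overlapped widely, with young 2 lowest and young 4 highest in CPM. Tubb3 averaged 0.878 ± 0.229 CPM in aged and 0.891 ± 0.607 CPM in young libraries (SD, n = 5 and 4), and its log2 fold change was -0.0022 (SE 0.52; adjusted p = 1.0 by edgeR). The 2 sets of libraries gave opposite signs. The log2 fold change was 0.51 (SE 0.40; adjusted p = 0.493 by edgeR) in the 6 other libraries. For aged 3 and aged 4 against young 4 the difference of mean log2 CPM was -0.93, with no test. By this measure the 6 other libraries gave 0.48. The difference between the sets was -1.45 (SE 0.81; adjusted p = 0.925 by edgeR) and did not pass.

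Uchl1 was the most abundant member. It had 118, 221, 251, 88 and 58 counts in aged libraries, against 124, 152, 91 and 151 in young libraries. Aged 3 and aged 2 were highest among the aged and aged 5 was lowest of all 9 in CPM, so that the aged libraries spanned the young range on both sides. Uchl1 averaged 7.41 ± 5.25 CPM in aged and 6.44 ± 2.87 CPM in young libraries (SD, n = 5 and 4), and its log2 fold change was 0.20 (SE 0.53; adjusted p = 1.0 by edgeR). Without aged 3 the value was -0.24. For aged 5 alone against young 1 to 4 the difference of mean log2 CPM was -1.42, with no test. Rtn1 had 7, 32, 5, 12 and 18 counts in aged libraries, against 23, 26, 15 and 12 in young libraries. In CPM aged 2 was the highest and aged 1 the lowest library, and the groups overlapped. Rtn1 averaged 0.667 ± 0.457 CPM in aged and 0.877 ± 0.233 CPM in young libraries (SD, n = 5 and 4), at a log2 fold change of -0.39 (SE 0.53; adjusted p = 1.0 by edgeR). Without aged 2 the Rtn1 value was -0.87 (adjusted p = 0.786 by edgeR).

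Over the 5 members that passed the low-count filter, 0 were called by edgeR at an adjusted p of 0.05, where 0.0% of the 16576 genes tested were called. An unadjusted p under 0.05 was reached by P2rx3 alone among the 5, against 8.79% of all genes tested. DESeq2 called 360 genes (2.17%) and limma-voom 0, neither with a member among them. The log2 fold change was above 0 for 1 member and below 0 for 4, against 46.5% of all genes below 0, and the median was -0.36 for the members and 0.03 for all genes. In CPM 0 of the 5 had groups that did not overlap, against 4.43% of all genes. With the library set as a term 319 genes were called (1.92%), again none of the 5. In the 6 other libraries 2 of 16644 genes were called (0.012%), neither a member, and 2 of the 5 members, P2rx3 and Nefh, had groups that did not overlap, against 30.7% of those genes, a share too near to read anything about the members from it.

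**Figure D3:**
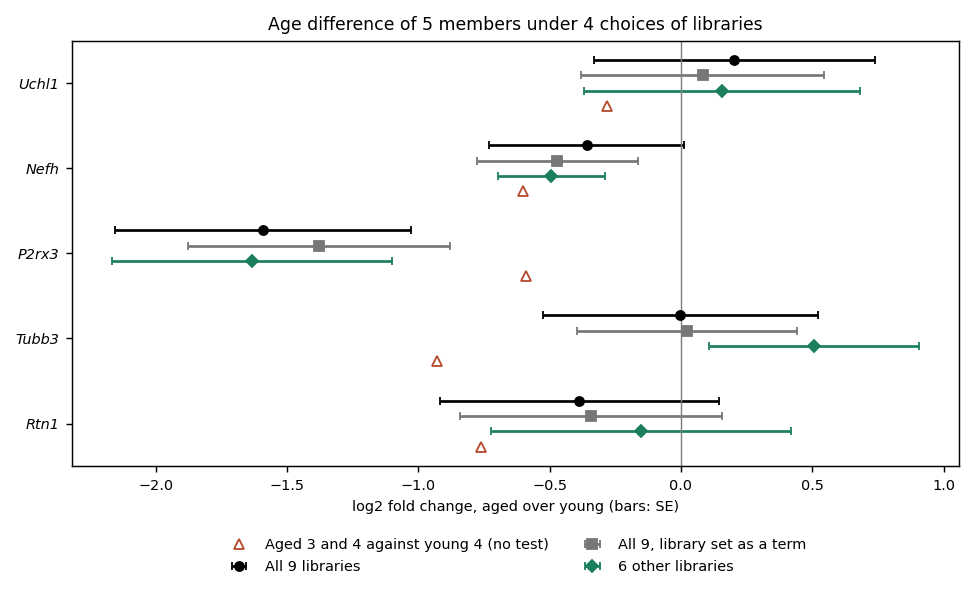
Log2 fold change, aged over young (horizontal axis), of the 5 genes above the low-count filter, for all 9 libraries, all 9 with the library set as a term, the 6 other libraries, and aged 3 and 4 against young 4. Bars are SE. Triangles are differences of mean log2 CPM, not edgeR estimates, and have no test. P2rx3 lies at -1.59, -1.38, -1.63 and -0.59, and Tubb3 changes sign between the sets.

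Levels per transcript length, in the deposited TPM, ordered the members within the tissue. Median TPM over the 9 libraries was 7.37 for Uchl1, 1.19 for Nefh, 0.51 for Tubb3, 0.5 for P2rx3, 0.34 for Rtn1, 0.07 for Prph and 0.03 for Trpv1, and 0 for Calca, Gap43 and Nefl. The Uchl1 median stood at percentile 60.5 of the 21858 genes whose median TPM was above 0, that of Nefh at 38.3 and that of Trpv1 at 3.11. Uchl1 exceeded Nefh in 9 of 9 libraries, Nefh exceeded Tubb3 in 8 and P2rx3 exceeded Rtn1 in 7. Tubb3 exceeded P2rx3 in 4 of 9, and Prph exceeded Trpv1 in 5 of 9, so that the order of these neighbours changed between libraries. Prph and Trpv1 rest on at most 9 counts per library. The order pools both ages: in young 1 to 3 P2rx3 was at 1.94, 2.29 and 1.72 TPM, above Nefh at 1.33, 1.49 and 1.61 TPM, while in all 5 aged libraries and young 4 it was below Nefh.

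Relatives of the members that are used by many cell types were far more abundant than the members themselves. Rtn3 and Rtn4 had median TPM of 84.0 and 74.2, against 0.34 for Rtn1. Among beta-tubulins, Tubb5 and Tubb4b had 376 and 316 TPM and the platelet form Tubb1 had 83.8, against 0.51 for Tubb3. The hydrolases Uchl3 and Uchl5 had 31.3 and 37.8 TPM, both above Uchl1. Among ATP-gated channels, P2rx4, P2rx1 and P2rx7, known from blood and immune cells, had 18.9, 15.1 and 8.41 TPM, against 0.5 for both P2rx3 and P2rx2. Trpv2 had 19.6 TPM, against 0.03 for Trpv1, and the intermediate filament gene Vim of mesenchymal and blood cells had 400, against 0.07 for Prph. Other relatives were as low as the members: Tubb4a had a median of 0.35 TPM, P2rx5 had 0.51, and Nefm and Ina had 0.

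**Figure D4:**
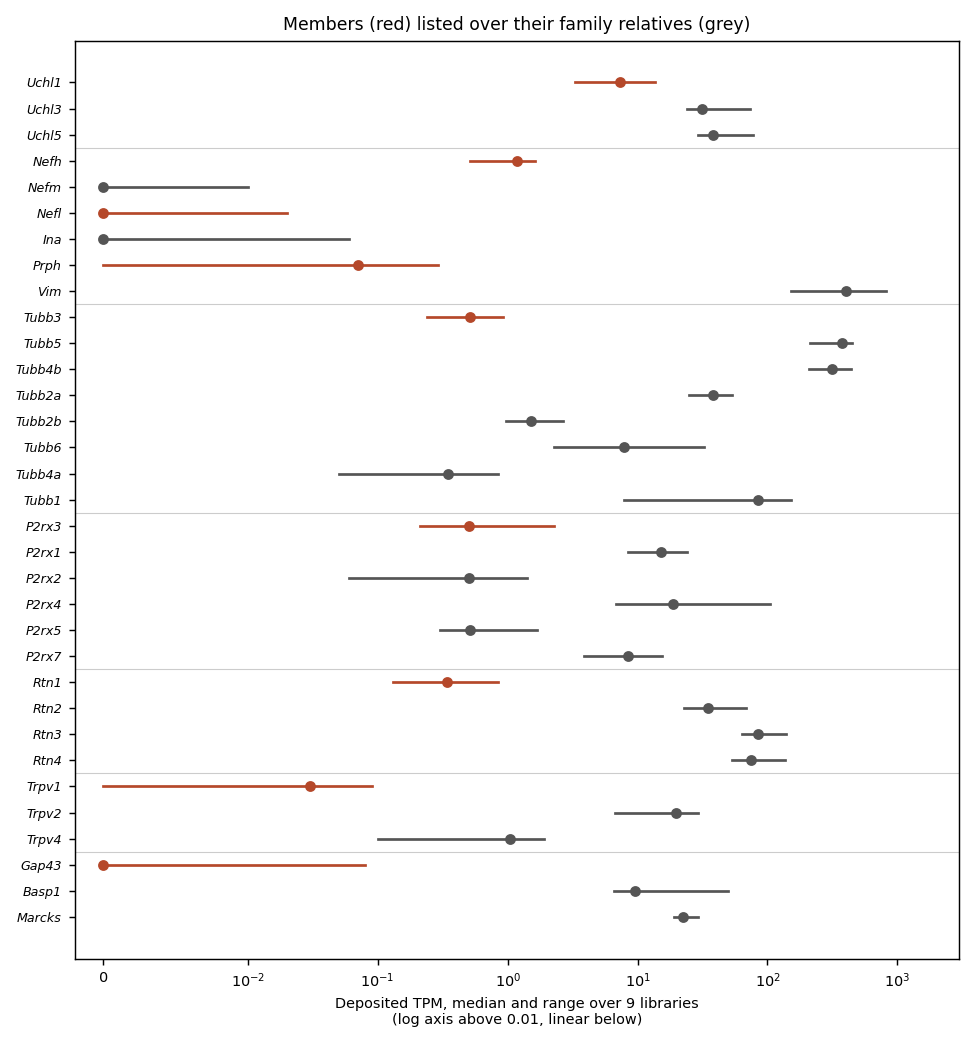
Deposited TPM (horizontal axis, log scale above 0.01 and linear below) of the members (red) and relatives of their families (grey); points are medians and lines the range over the 9 libraries. Uchl1 lies at 7.37 and under Uchl3 and Uchl5, Tubb3 at 0.51 and under Tubb5 at 376, and Nefl, Nefm and Gap43 at 0.

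Other genes of sensory neurons were also mostly near zero. Of 22 such genes 21 were in the table, 13 had fewer than 10 counts in every library and 7 had 0 in all of them, among these the cold channel Trpm8, Mrgprd, Prdm12 and Tlx3. The 7 that were tested split into 4 above and 3 below 0, P2rx2 among the latter, with a median of 0.04 and 0 called by edgeR. Pou4f1, a transcription factor of sensory neurons, had 7, 12, 8, 11 and 9 counts in aged libraries and 4, 1, 2 and 4 in young libraries. Every aged library was above every young one, but the gene did not pass the low-count filter and was picked out after its values were seen. The share of genes under the filter that did the same was not counted, so nothing is read from it. Of 22 genes used by neurons in general, 10 had fewer than 10 counts in every library and Snap25, a protein of synaptic vesicle release, had 0 in all. Of the 11 tested, 7 were above and 4 below 0, with a median of 0.12 and 0 called. The smallest p among them was that of Thy1, also used by other cells, at 16.4 ± 3.92 CPM in aged and 10.6 ± 1.89 CPM in young libraries (SD, n = 5 and 4) and a log2 fold change of 0.63 (SE 0.23; adjusted p = 0.445 by edgeR).

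Genes listed for cells that accompany or answer sensory fibres mostly had counts, some at low levels. Of 18 Schwann cell genes, 2 had fewer than 10 counts in every library: Sox10, with at most 7, and Gfra3, with at most 6. The 18 genes summed to 111 to 171 CPM in aged and 155 to 189 CPM in young libraries. Mbp, at means of 66.2 CPM in aged and 81.3 CPM in young libraries, held the largest part. Ncam1 was next, at 33.1 and 31.8 CPM. Which cells these genes came from was not tested. The 12 tested split into 5 above and 7 below 0, with a median of -0.11 and 0 called. Gfap, a filament protein of non-myelinating Schwann cells, had 58, 156, 119, 77 and 287 counts in aged libraries, against 495, 472, 399 and 360 in young libraries. All 5 aged libraries lay below all 4 young ones, at 6.31 ± 3.22 CPM in aged and 20.4 ± 3.35 CPM in young libraries (SD, n = 5 and 4), as in 2.76% of all genes tested. The Gfap log2 fold change was -1.69 (SE 0.38), which did not pass the test with an adjusted p of 0.255 by edgeR. Gfap had the smallest p of this list. Egr2, with the next smallest, went the other way, at a log2 fold change of 1.08 (SE 0.43; adjusted p = 0.497 by edgeR). Of 6 genes listed for the receptors of calcitonin gene-related peptide and substance P, 4 were tested, 3 above and 1 below 0, with 0 called. The receptor Calcrl was at 0.07, and its partners Ramp1, Ramp2 and Ramp3 were at 0.30, 0.53 and -0.05 on the log2 scale. The median of these 4 was 0.19. Calcr and the substance P receptor Tacr1 did not pass the low-count filter, so the median holds no substance P receptor. Among 10 sympathetic neuron genes, Dbh, the enzyme that makes noradrenaline, and Chrna3 had 0 in every library, and the 2 that were tested were above 0, with a median of 0.35 and 0 called.

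The genes closest to each tested member over the 9 libraries were found by the root mean square difference of log2 CPM, standardised per gene. For P2rx3 they were Bcl7a at 0.296, Egfl6 at 0.326 and Gfra1 at 0.349, and for Nefh they were Hmox1 at 0.191, Igf1 at 0.228 and Spic at 0.261. Hmox1 and Spic are used by macrophages that take up red blood cells. For Uchl1 the closest were Hcn3, Cys1 and Gas1 at 0.277 to 0.377, for Tubb3 Gm20826, Abcf3 and Ptdss1 at 0.311 to 0.394, and for Rtn1 Ighv1-84, Ggt7 and Csad at 0.343 to 0.369. The median over all genes was 1.38 for P2rx3 and 1.45 for Nefh. Between members the difference ran between 0.864 for Nefh and Uchl1 and 1.7 for P2rx3 and Tubb3, so none of the other members was among the 3 closest genes of any member. These values are descriptions over 9 libraries that also share the library sets.

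Counts and TPM together imply a transcript length for each member and library. Its scale was set in each library by the median of 4608 genes with at least 500 counts, so the values compare libraries and are not measured lengths. For Tubb3 the implied length was 1923 to 2016 bases and for Nefh 4475 to 4641 bases, above their listed 1868 and 3994 bases in every library. P2rx3 spanned 1284 to 1963 bases. Rtn1 varied most, with 3726, 3514, 1398, 1540 and 3002 bases in aged libraries, against 2413, 1928, 3664 and 3698 in young libraries. Both groups held long and short values, a 2.67-fold span on counts of 5 to 32 per library. Rtn1 has 6 transcripts in GENCODE M21, and the isoforms behind its counts were not analysed here.

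**Figure D5:**
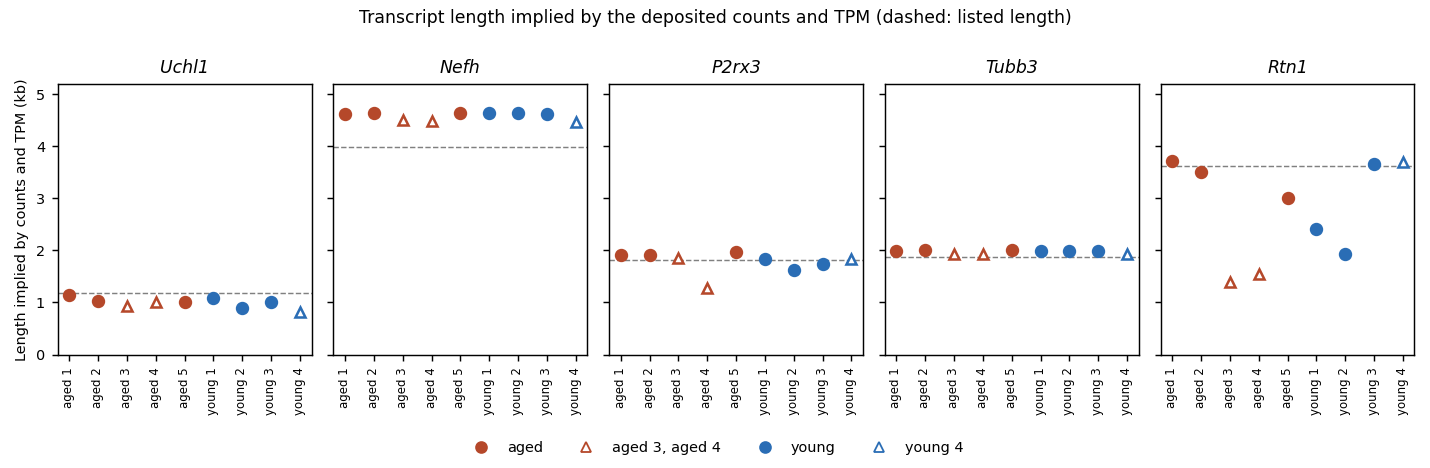
Transcript length in kb (vertical axis) implied by the deposited counts and TPM for the 5 genes above the low-count filter, 1 point per library, aged in red and young in blue, with open triangles for aged 3, aged 4 and young 4. The dashed line is the length listed in the deposited table; Nefh and Tubb3 are nearly constant, while Rtn1 spans 1398 to 3726 bases.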

How the data were processed

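RNA of 9 bone libraries was analysed from 1 table of 56980 genes. Per the submitters' processing notes the tools and builds included Bowtie 0.12.2 and mm8, without a stated role. The quantifier, its annotation and the use of strand are not given in the sources used here. The authors deposited estimated counts, which were rounded to whole numbers before testing, and TPM, used for levels between genes only. The log2 fold changes, fold values (ratio) and p-values in the authors' deposited table are named as such where printed. The number of unmapped sample columns was 0.

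Aged and young libraries were compared by a two-sided edgeR quasi-likelihood test (edgeR 4.0.16, R 4.3.3) that held only the age group. Library sizes were scaled by TMM, low counts were removed by filterByExpr (minimum count 10, minimum total 15), and p-values were adjusted by Benjamini and Hochberg across the 16576 genes left, with calls made under 0.05. Log2 CPM per library used a prior count of 2. Alternatives used DESeq2 1.42.0, limma 3.58.1 (voom), other scalings and filters, the library set, the replicate number and each library left out. Scripts were tested on simulated data. Ratios of summed counts have exact intervals that cover counting error only. No 2 libraries agreed within sampling noise: young 1 and young 3 were closest, with a chi-square per gene of 15.3. Overlapping genes came from GENCODE M21, where 52073 of the 56980 gene IDs were found, and promoter sequences from RefSeq (GRCm38.p6). The 10 members are named in full. From other lists the text names members with the smallest p, some genes at 0 in every library and relatives, and 3 closest genes per tested member. Some genes of these lists are not reported here.

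The members, the lists and the library sets were chosen with earlier results of these data known.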

Additional observations from a re-analysis of the deposited data

Results flagged for a closer look

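Each member was examined in each age, apart from Gap43 in aged and Nefl in young libraries, where every value was 0, and 5 of these 18 groups had a library far from the others by Dixon's criterion. Chance flags about 1 in 20 groups of continuous values, a rate that does not hold for near-zero counts, where a single library above 0 is always flagged. Nefh in aged 3 was 8.21 CPM, with the next aged library at 3.69 CPM. Calca in aged 3 was 0.429 CPM, next to 0.113 CPM in the nearest aged library, and Calca in young 3 was 0.042 CPM, with the other 3 young libraries at 0.0 CPM. Nefl in aged 2 was 0.0445 CPM, with 0.0 CPM in the other 4 aged libraries. Trpv1 in young 4 was 0.0 CPM, with the nearest young library at 0.076 CPM. Except for Nefh, these values rest on at most 7 counts. Aged 3 and young 4 belong to the 3 libraries with the higher ribosomal protein share, and the part of that difference in these values was not tested.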

How the results depend on the processing

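No member was called under any of the alternatives tried for it. P2rx3 kept its direction in all 19 settings with a test, between -2.13 and -1.38 on the log2 scale (adjusted p 0.129 to 0.95), as did Nefh (-0.74 to -0.20) and Rtn1 in 18 settings (-0.87 to -0.15). Tubb3, at -0.0022, was above 0 at 0.01 with RLE size factors, 0.15 with library totals, 0.03 with DESeq2, 0.23 with limma-voom, 0.02 without the low-count filter, 0.02 with the library set term and 0.51 in the 6 other libraries. Uchl1 was -0.01 with limma-voom. As a difference of mean log2 CPM it was -0.28 for aged 3 and 4 against young 4. By the same measure it was -1.42 for aged 5 against young 1 to 4, an alternative chosen after seeing the data. In the 6 other libraries this measure gave -0.06 and edgeR 0.16. The cause was not tested.

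Genes called by age numbered 360 with DESeq2, 319 with the library set term and 2 in the 6 other libraries, against 0 in the main test. Members above 0 numbered 2 with RLE, totals, DESeq2, no filter, the set term and the 6 other libraries. For aged 3 and 4 against young 4, by differences of mean log2 CPM, they numbered 0. Members whose groups did not overlap numbered 2 in the 6 other libraries, where 30.7% of all genes tested did the same. With each library left out, genes called ranged from 0 to 6 (6 without aged 5), members above 0 from 1 to 2, members without overlap from 0 to 1, Tubb3 from -0.25 to 0.54 and Uchl1 from -0.24 to 0.52. The share of all genes without overlap was not counted for these fits.

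With the replicate number as a block, 13 genes were called, 2 members were above 0, Tubb3 was 0.27 and P2rx3 was -1.49 (adjusted p 0.242). Libraries with the same number correlated at 0.456, 0.554, -0.387 and 0.739. The aged library closest to young 2 and to young 4 had the same number, while young 1 and young 3 were closest to aged 5. Aged 3, aged 4 and young 4 also stand apart as a set, so these correlations cannot show whether the numbers pair the samples. A mean of at least 1 CPM left Rtn1 and Tubb3 without a value. Depth limits the 5 members near zero to counting statements.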
